A study of Mus musculus with 11 samples.

Results

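The genes described here are 10 alarmins, cytokines and NF-kB feedback genes: Il33, Il1a, Il1b, Il18, Tslp, Tnf, Tnfaip3, Nfkbia, Csf1 and Osm. They were chosen by symbol, matched to the Ensembl gene identifiers of the deposited tables, and all 10 of them were found among 55536 genes and were among the 20307 genes with enough reads to be tested. Their RNA was counted by bulk sequencing of 11 libraries, each made from sorted dorsal epidermis of males. All mice carried CD4Cre R26-tdT on C57Bl6/N, a strain in which Cre driven by the Cd4 promoter switches on the red fluorescent protein tdTomato (tdT), so that tdT marks cells in which Cre was active or whose ancestors had it. Epidermal cells were released with thermolysin and sorted for CD49f and CD34, which both are used to isolate hair follicle stem cells, and then by Sca-1 and tdT into 4 groups. The Sca-1neg sort gave 3 libraries with tdT (Sca-1neg tdT+) and 3 without (Sca-1neg tdT-), and the Sca-1+ sort 3 with (Sca-1+ tdT+) and 2 without (Sca-1+ tdT-). Every library pooled 2 mice, and in each group replicate 1 came from mice of 29 weeks and the others from mice of 32 weeks. No group lacked the Cre or the reporter, so the strain has no control here without them.

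Alarmins are cytokines held ready in barrier cells such as keratinocytes and released on damage. IL-33 sits in the nucleus, IL-1 alpha and IL-18 are stored inside the cell, and TSLP is secreted. The receptors of IL-33, IL-1 and IL-18, like those of TNF, lead to NF-kB, whereas that of TSLP signals mainly through STAT proteins. NF-kB is a transcription factor held in the cytoplasm by inhibitor proteins until those are degraded. NF-kB then switches on its own inhibitors, among them Nfkbia and Tnfaip3, so the level of these messages is a common readout of recent NF-kB activity. CSF-1 is the growth factor of macrophages, and oncostatin M (Osm) is an IL-6 family cytokine made chiefly by myeloid cells and T cells that acts on keratinocytes.

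Library totals ran from 17409131 to 46542177 counts, so that 3 counts, the limit that a count of 0 allows, corresponded to between 0.0645 and 0.172 counts per 1000000 (CPM). Levels below are CPM scaled by edgeR's trimmed mean of M-values (TMM). Basal keratinocyte markers (6 genes, among them Krt5 and Krt14) summed to between 16919 and 38469 CPM in all 11 libraries. Ly6a, the gene of Sca-1, was at 2.46 to 59.2 CPM in the 6 libraries sorted as Sca-1neg and at 153 to 294 CPM in the 5 sorted as Sca-1+. Cd34 was at 22.4 to 35.7 CPM in Sca-1+ tdT+ libraries, 320 to 383 in Sca-1+ tdT- libraries and 468 to 1130 in the Sca-1neg libraries, so its message was low in cells sorted as CD34+ and Sca-1+ tdT+. The reporter was at 133 to 307 CPM in 5 of the 6 tdT+ libraries, against 2.54 to 4.89 CPM in the tdT- libraries. The Sca-1neg library labelled tdT+ replicate 2 had 2.05 CPM (95% exact interval 1.44 to 2.83, counting error only), the level of a tdT- library. That library, Sca-1neg tdT+ replicate 1 and Sca-1neg tdT- replicate 2 also held transcripts typical of liver, so values without these 3 are given where they change a call or a direction among the 10 genes.

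Promoters of 8 of the 10 genes had a window in the RefSeq table (GRCm38.p6, the patch series of mm10), 250 bases before to 50 bases after the start site. An NF-kB consensus (GGG, then any 2 bases, then TTT and CC), searched on both strands, was found in 3 of those 8, in Csf1, Tnfaip3 and Nfkbia. Counted by window, it was in 3 of the 10 windows of these 8 genes (30%) and in 535 of all 32851 windows (1.63%). All 3 matches lie on the opposite strand to the gene, so they read GG, AAA, any 2 bases and CCC in the gene's direction. They are shown because 2 of the 3 genes are feedback inhibitors of NF-kB and the third, Csf1, behaved differently from both in the data below. Each is written 5′ to 3′ on the gene's strand up to the base before the RefSeq start site, with the match in capitals. The Tnfaip3 stretch lies inside the gene as GENCODE draws it, since 1 of its annotated transcripts starts further upstream.
Csf1, chr3:107760470-107760649, minus strand, match ending 144 bases before the start site: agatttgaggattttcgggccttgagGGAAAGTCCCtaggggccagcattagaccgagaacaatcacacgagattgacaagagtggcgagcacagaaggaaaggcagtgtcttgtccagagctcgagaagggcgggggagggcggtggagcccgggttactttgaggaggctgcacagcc
Tnfaip3, chr10:19015411-19015530, minus strand, match ending 2 bases before the start site: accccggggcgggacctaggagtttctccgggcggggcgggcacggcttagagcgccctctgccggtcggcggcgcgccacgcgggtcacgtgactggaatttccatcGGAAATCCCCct
Nfkbia, chr12:55492648-55492767, minus strand, match ending 19 bases before the start site: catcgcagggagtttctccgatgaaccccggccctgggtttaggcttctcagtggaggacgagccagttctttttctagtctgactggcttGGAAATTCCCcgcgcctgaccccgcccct
A match describes these letters and was not tested as a binding site. Among the other genes of the pathway listed below, 11 of the 60 with a window held the motif (18.3%), among them Il1rn, Casp4, Rel, Nfkb2, Cxcl1 and Cxcl2. That share counts genes, whereas the 1.63% counts windows.

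The 10 genes differed widely in level. Per kilobase of exon, the mean over all 11 libraries was 325 CPM for Nfkbia, 46.2 for Tnfaip3, 42.2 for Il33 and 9.04 for Csf1. The other 6 were low: 5.07 for Il1b, 4.74 for Il18, 3.04 for Tnf, 2.34 for Tslp, 1.26 for Osm and 1.06 for Il1a. By group mean per kilobase, Nfkbia ran from 250 CPM in Sca-1neg tdT- to 439 in Sca-1+ tdT- cells. Tnfaip3 ran from 12.1 in Sca-1neg tdT- to 89.4 in Sca-1+ tdT+ cells. Il33 was the only alarmin among the 4 highest over all libraries, and its mean in Sca-1neg tdT- cells was 4.56. The low genes rest on few reads: Osm had 19 reads over the 3 Sca-1neg tdT- libraries together, Tnf had 61 and Il1a had 114.

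**Figure D1:**
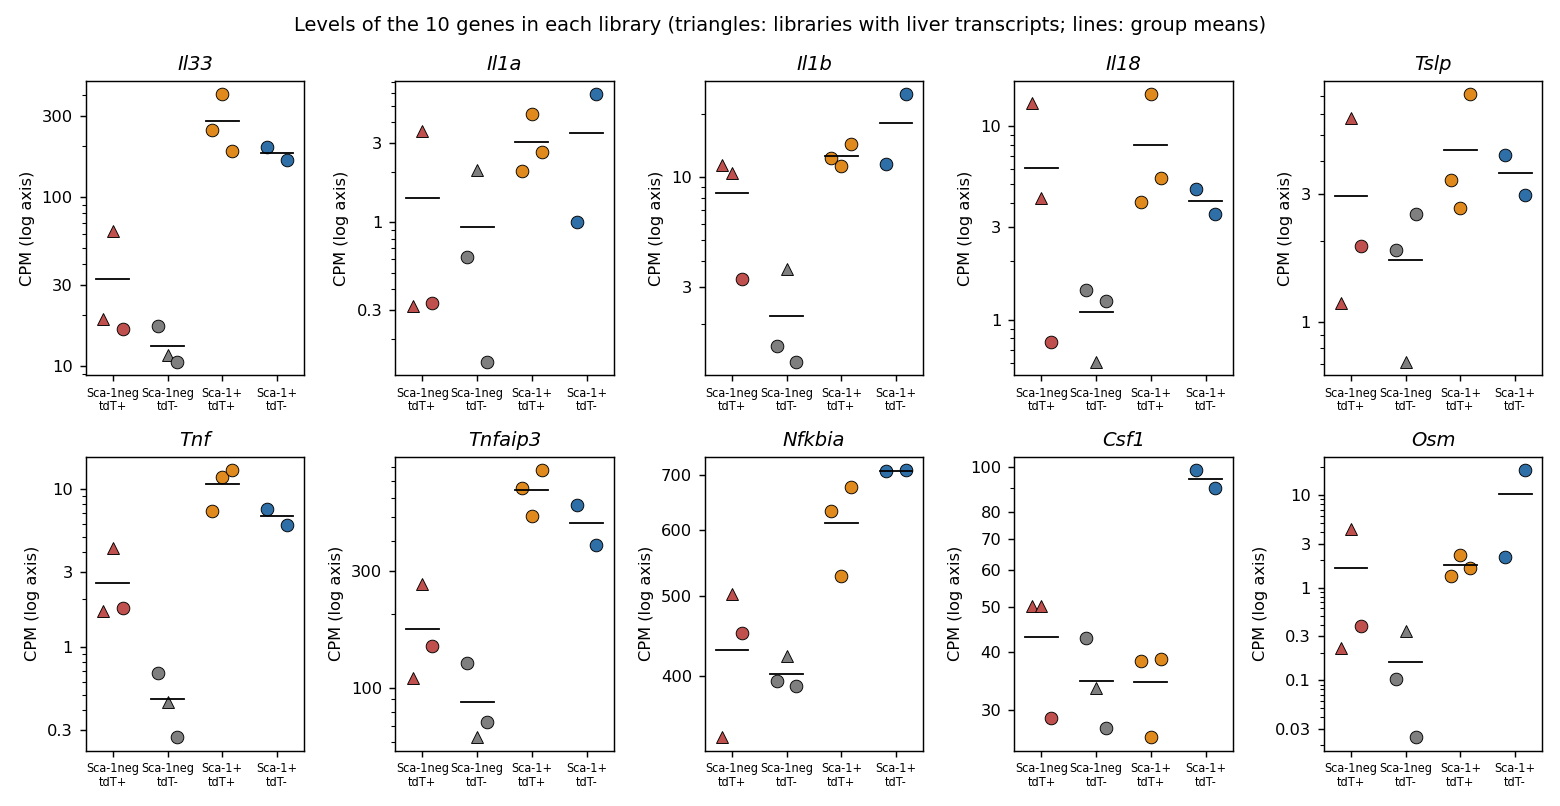
Level of each of the 10 genes in every library, in CPM on a log axis, by sorted group. Each point is 1 library, triangles mark the 3 libraries with liver transcripts and horizontal lines are group means. Il33, Tnf, Tnfaip3 and Nfkbia lie higher in all 5 Sca-1+ libraries than in all 6 Sca-1neg ones, and Csf1 is highest in Sca-1+ tdT- cells.

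Among the alarmins, Il33 alone passed the test by Sca-1 in both tdT+ and tdT- cells. Il33, on chromosome 19 (29925114 to 29960718, plus strand, mm10), encodes the nuclear alarmin that acts through ST2 on mast cells, regulatory T cells and innate lymphoid cells. It was at 19.1, 62.9 and 16.5 CPM in Sca-1neg tdT+ replicates 1 to 3, and at 17.2, 11.7 and 10.6 CPM in Sca-1neg tdT- replicates 1 to 3. The Sca-1+ sorts had 247, 404 and 187 CPM with tdT and 198 and 165 CPM without it. All 5 Sca-1+ libraries lay above all 6 Sca-1neg libraries, and the highest Sca-1neg value, 62.9, came from the Sca-1neg library labelled tdT+ replicate 2. Sca-1+ exceeded Sca-1neg by 3.79 ± 0.59 on the log2 scale (SE) in tdT- cells (13.8-fold, edgeR quasi-likelihood test, Benjamini-Hochberg adjusted p = 0.0106) and by 3.09 ± 0.55 in tdT+ cells (8.51-fold, adjusted p = 0.00817). In these bulk libraries, fewer cells of a type and less RNA per cell cannot be told apart.

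The other alarmins, Il1a, Il18 and Tslp, were low. Their Sca-1neg tdT+ replicates varied widely and overlapped with the Sca-1+ libraries. Il1a, on chromosome 2 (129299610 to 129309972, minus strand), encodes IL-1 alpha, which is active without processing. It was at 0.317, 3.53 and 0.331 CPM in Sca-1neg cells with tdT and at 0.620, 2.06 and 0.146 in those without. For the Sca-1+ sorts the values were 2.03, 4.49 and 2.63 CPM (tdT+), then 1.01 and 5.86 CPM (tdT-). These groups overlapped, and the differences by Sca-1 of 1.86 ± 1.23 in tdT- cells (adjusted p = 0.429) and 1.13 ± 1.13 in tdT+ cells (adjusted p = 0.542) did not pass the edgeR test.

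Il18, on chromosome 9 (50554827 to 50581840, plus strand), encodes a cytokine matured by caspase-1. It was at 13.2, 4.23 and 0.771 CPM in Sca-1neg cells with tdT and at 1.43, 0.608 and 1.24 in those without. Cells sorted as Sca-1+ had 4.05, 14.6 and 5.42 CPM when tdT+, or 4.71 and 3.52 CPM when tdT-. Sca-1neg tdT- libraries were all below both Sca-1+ groups, whereas Sca-1neg tdT+ libraries spanned nearly the whole range, with the highest of them in replicate 1. Its Sca-1 difference was 1.91 ± 0.91 in tdT- cells (edgeR adjusted p = 0.271) and 0.40 ± 0.82 in tdT+ cells (adjusted p = 0.787). Without the 3 libraries with liver transcripts, the Sca-1 difference of Il18 in tdT+ cells was 3.34. Only Sca-1neg tdT+ replicate 3, at 0.771 CPM, then remains in its group.

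Tslp, on chromosome 18 (32815383 to 32819797, plus strand), encodes a keratinocyte cytokine of allergic skin inflammation. It was at 1.178, 5.78 and 1.93 CPM in Sca-1neg cells with tdT and at 1.86, 0.714 and 2.54 in those without. Levels in the Sca-1+ libraries were 3.38, 2.67 and 7.07 CPM with tdT, 4.21 and 2.97 CPM without. The Sca-1neg tdT- libraries lay just below every Sca-1+ library, with a gap of 2.54 to 2.67 CPM. The Sca-1 difference was 1.07 ± 0.76 in tdT- cells (edgeR adjusted p = 0.463) and 0.56 ± 0.69 in tdT+ cells (adjusted p = 0.629). For Il1a, Il18 and Tslp these SEs leave differences of several fold undetectable at this number of libraries.

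The cytokines Il1b, Tnf and Osm, which leukocytes make in quantity, had their lowest group mean in Sca-1neg tdT- cells. So did all the other genes of the 10 except Csf1. Il1b, on chromosome 2 (129364570 to 129371139, minus strand), encodes the inflammasome cytokine IL-1 beta. It was at 11.5, 10.4 and 3.25 CPM in Sca-1neg cells with tdT and at 1.57, 3.65 and 1.32 in those without. For the Sca-1+ sorts the values were 12.4, 11.4 and 14.4 CPM (tdT+), then 11.6 and 24.9 CPM (tdT-). In tdT- cells it was 3.07 ± 0.59 higher (log2) with Sca-1 (edgeR adjusted p = 0.0144), and the groups did not overlap. In tdT+ cells the difference was 0.60 ± 0.52 (adjusted p = 0.471), and of the Sca-1neg tdT+ libraries replicate 1 reached the range of the Sca-1+ libraries and replicate 2 lay just below it. With the 3 liver-bearing libraries left out, a single Sca-1neg tdT+ library remains, its spread is taken from the other groups, and the difference was 1.95 and passed (adjusted p = 0.0391). Il1a and Il1b overlap antisense genes in the annotation, and the strand setting of the counting is not given in the sources used here, so reads of either strand cannot be told apart for these 2 genes.

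Tnf, on chromosome 17 (35199381 to 35202007, minus strand), encodes the cytokine TNF, both an activator and a target of NF-kB. It was at 1.68, 4.23 and 1.76 CPM in Sca-1neg cells with tdT and at 0.682, 0.449 and 0.268 in those without. Cells sorted as Sca-1+ had 7.22, 11.9 and 13.2 CPM when tdT+, or 7.50 and 5.91 CPM when tdT-. By label the 3 levels did not overlap: Sca-1neg tdT- below Sca-1neg tdT+, and both below all Sca-1+ libraries. The highest Sca-1neg value, 4.23, came from the library labelled tdT+ replicate 2, whose reporter level was that of a tdT- library. By Sca-1 it was 3.83 ± 0.57 higher (log2) in tdT- cells (edgeR adjusted p = 0.00569) and 2.07 ± 0.50 higher in tdT+ cells (adjusted p = 0.0219). The second call was lost without any one of Sca-1neg tdT+ replicates 1 or 3 or Sca-1+ tdT+ replicates 2 or 3, and the log2 difference over all alternatives stayed between 1.84 and 2.64.

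Osm, on chromosome 11 (4236420 to 4241026, plus strand), was at 0.227, 4.34 and 0.386 CPM in Sca-1neg cells with tdT and at 0.103, 0.344 and 0.0244 in those without. Levels in the Sca-1+ libraries were 1.36, 2.27 and 1.65 CPM with tdT, 2.15 and 18.7 CPM without. Its 2 highest values were single libraries, Sca-1+ tdT- replicate 2 and the Sca-1neg library labelled tdT+ replicate 2. These were also the 2 libraries with the highest summed macrophage and monocyte markers (8 genes, among them Lyz2 and Adgre1), at 730 and 352 CPM, where the other 9 had 7.90 to 187 CPM. The Sca-1 difference in tdT- cells was 6.03 ± 1.47 on the log2 scale (edgeR adjusted p = 0.0389), against the 19 reads named above, and was lost in 10 of 18 alternatives, among them leaving out either Sca-1+ tdT- library. In tdT+ cells it was 0.09 ± 1.16 (adjusted p = 0.967).

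Of the feedback inhibitors of NF-kB, Tnfaip3 passed as higher with Sca-1 in both tdT- and tdT+ cells, and Nfkbia in tdT- cells only. Tnfaip3, on chromosome 10 (19000910 to 19015657, minus strand), encodes A20, the ubiquitin-editing enzyme that ends TNF and IL-1 receptor signalling. It was at 109, 266 and 148 CPM in Sca-1neg cells with tdT and at 126, 62.9 and 72.9 in those without. For the Sca-1+ sorts the values were 655, 506 and 777 CPM (tdT+), then 559 and 385 CPM (tdT-). All Sca-1+ libraries exceeded all Sca-1neg libraries, the nearest being 266 in the Sca-1neg library labelled tdT+ replicate 2 and 385 in Sca-1+ tdT- replicate 2. The difference was 2.43 ± 0.40 (log2) in tdT- cells (5.41-fold, edgeR adjusted p = 0.00893) and 1.89 ± 0.37 in tdT+ cells (3.70-fold, adjusted p = 0.00876).

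Nfkbia, on chromosome 12 (55489410 to 55492647, minus strand), encodes IkB alpha, the inhibitor that holds NF-kB in the cytoplasm. It was at 338, 503 and 451 CPM in Sca-1neg cells with tdT and at 395, 423 and 389 in those without. Cells sorted as Sca-1+ had 632, 528 and 676 CPM when tdT+, or 706 and 709 CPM when tdT-. The order by group mean ran from Sca-1neg tdT- (402 ± 17.9 CPM, SD, n = 3) through Sca-1neg tdT+ (431 ± 84.5, n = 3) and Sca-1+ tdT+ (612 ± 76.1, n = 3) to Sca-1+ tdT- (708 ± 1.95, n = 2). Differences by tdT did not pass the edgeR test, at 0.10 ± 0.17 (log2) in Sca-1neg cells, where the groups overlapped, and -0.21 ± 0.19 in Sca-1+ cells, where they did not. By Sca-1 it was 0.81 ± 0.19 higher in tdT- cells (1.76-fold, edgeR adjusted p = 0.0298, a call lost in 6 of 18 alternatives) and 0.51 ± 0.17 higher, without passing, in tdT+ cells (adjusted p = 0.0756). DESeq2's Wald test called the latter (adjusted p = 0.0225). Both Sca-1+ groups lay above both Sca-1neg groups, with a gap from 503 to 528 CPM.

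Csf1 followed a different order. Csf1, on chromosome 3 (107741048 to 107760469, minus strand), was at 50.4, 50.2 and 28.9 CPM in Sca-1neg cells with tdT and at 42.9, 33.6 and 27.5 in those without. Levels in the Sca-1+ libraries were 38.4, 26.3 and 38.7 CPM with tdT, 98.3 and 90.1 CPM without. Only the pair of Sca-1+ tdT- libraries stood apart, and the other 9 overlapped. In tdT- cells Csf1 was 1.44 ± 0.27 higher (log2) with Sca-1 (2.72-fold, edgeR adjusted p = 0.0136), and among Sca-1+ cells it was lower with tdT, at -1.45 ± 0.27 (2.73-fold, adjusted p = 0.0178). In tdT+ cells the Sca-1 difference was -0.32 ± 0.25 (adjusted p = 0.409). The 2 comparisons that passed share the Sca-1+ tdT- libraries. Leaving out either of them ended the tdT call (adjusted p = 0.0962 and 0.0928), with differences of -1.39 and -1.55. The log2 ratio by tdT was -1.36 in the 29-week pair and -1.47 in the 32-week libraries, 2 against 1.

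The Sca-1+ tdT- libraries also held the most endothelial RNA. The 10 endothelial markers (among them Pecam1, Cdh5 and Kdr) summed to 4202 and 4472 CPM there, against 57.1 to 148 CPM in Sca-1+ tdT+, 42.2 to 142 in Sca-1neg tdT- and 10.7 to 963 in Sca-1neg tdT+ libraries. None of the 10 was at 0 in any library. By the edgeR test 0 of these 10 markers were higher with Sca-1 in tdT- cells, and 1 was lower with tdT in Sca-1+ cells. Mast cell markers (5 genes, of which 1 had enough reads to be tested) also summed highest in Sca-1+ tdT-, at 36.9 and 62.0 CPM. Their sums were 1.22 to 18.6 CPM in the other groups. In Sca-1neg tdT+ cells the highest endothelial sum, 963, was in the library labelled replicate 2, where Csf1 was 50.2 CPM, and replicate 1 had the same Csf1 level with a sum of 84.5 CPM. The part of endothelial or mast cells in the Csf1 difference was not tested.

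**Figure D2:**
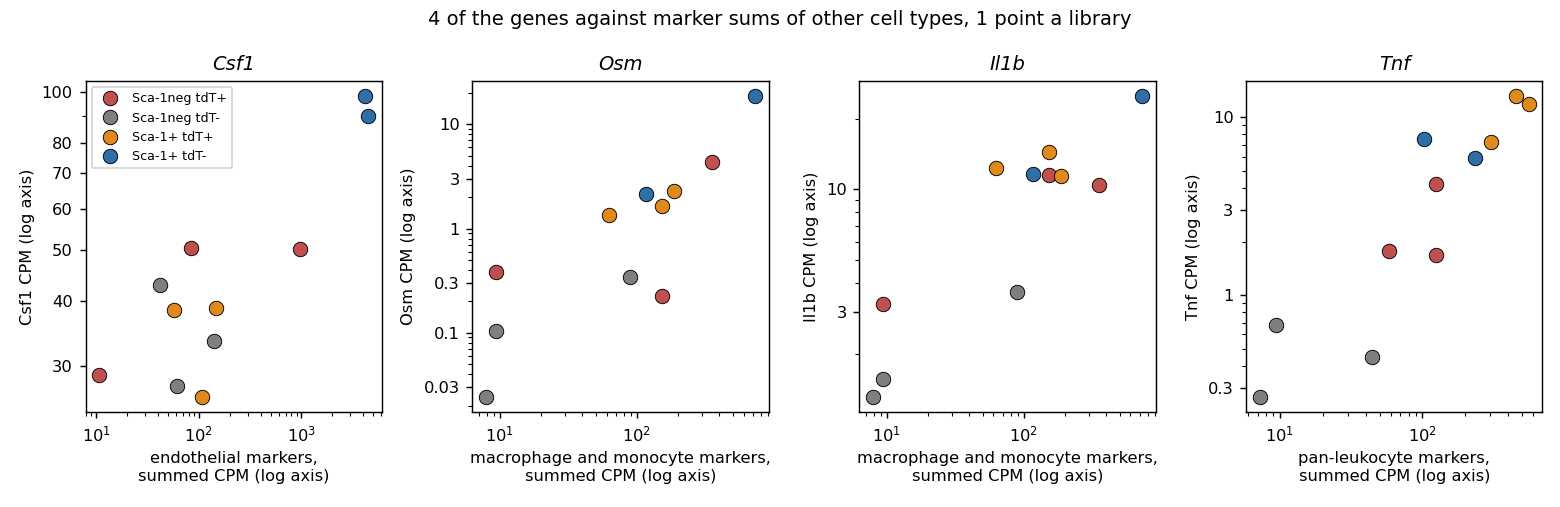
Levels of Csf1, Osm, Il1b and Tnf (CPM, log axis) against the summed CPM (log axis) of endothelial, macrophage and monocyte, or pan-leukocyte markers, 1 point a library, coloured by group. The 2 Sca-1+ tdT- libraries stand apart for Csf1 and endothelial markers, and the library with the most Osm, 18.7 CPM, has the most macrophage and monocyte RNA, 730 CPM.

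Leukocyte RNA and differentiating keratinocyte RNA both moved with several of the genes. Pan-leukocyte markers (6 genes, none at 0) summed to 304 to 559 CPM in Sca-1+ tdT+, 102 to 235 in Sca-1+ tdT-, 58.6 to 124 in Sca-1neg tdT+ and 7.22 to 44.5 in Sca-1neg tdT- libraries. The group means of Tnf, Il33, Tnfaip3 and Tslp came in the same order. T cell markers (6 genes, none at 0) summed to 170 to 589 CPM in Sca-1+ tdT+, 37.5 to 39.1 in Sca-1+ tdT-, 15.5 to 34.9 in Sca-1neg tdT+ and 3.66 to 6.11 in Sca-1neg tdT- libraries. Of these T cell genes, 6 of 6 were higher with Sca-1 in tdT+ cells and 5 of 6 in tdT- cells by the edgeR test. Langerhans cell markers (6 genes, none at 0) summed to 883 to 988 CPM in Sca-1+ tdT- and to 362 to 702 CPM in the other 9 libraries. The sum does not follow each gene, and H2-Aa alone ran from 3.07 to 123 CPM. By the edgeR test 4 of these 6 genes were higher with Sca-1 in tdT- cells, with a median log2 difference of 3.79. In tdT+ cells 0 were higher and 1 was lower, with a median of 0.95. Differentiating keratinocyte markers, 6 genes with Krt1 and Krt10, summed to 7524 to 10195 CPM in Sca-1+ tdT+, 3127 to 7092 in Sca-1+ tdT-, 1648 to 4163 in Sca-1neg tdT+ and 494 to 1706 in Sca-1neg tdT- libraries. The T cell and differentiating keratinocyte sums thus ran in the same group order as the pan-leukocyte sums and as the group means of Tnf, Il33, Tnfaip3 and Tslp. The part of any of these cells in the levels of Tnf, Il1b, Il33 or Tnfaip3 was not tested.

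Counted together for Sca-1, 7 of the 10 genes were higher in Sca-1+ than in Sca-1neg tdT- cells by the edgeR test, and none was lower. Of all 20307 genes tested, 3.68% were higher in that comparison. The 7 were Il33, Il1b, Tnf, Tnfaip3, Nfkbia, Csf1 and Osm, and the median log2 difference of the 10 was 2.17, against -0.13 over all genes tested. All 10 differences were positive, and all 10 were positive within each age too. In the single 29-week pair the log2 ratios of the 7 ran from 0.84 (Nfkbia) to 4.38 (Osm), and in the 32-week libraries, 1 against 2, from 0.80 (Nfkbia) to 6.67 (Osm). The 32-week libraries alone gave no call among the 10. With 2 Sca-1+ tdT- libraries the count depends on each: without replicate 1 of them 2 of the 10 passed (Il1b and Tnf) and without replicate 2, 4 passed (Il33, Tnf, Tnfaip3 and Csf1). Without Sca-1neg tdT- replicate 3, 2 passed (Tnf and Tnfaip3), and without Sca-1neg tdT- replicate 1, 4 passed. Without the 3 libraries with liver transcripts the 7 genes passed again.

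In tdT+ cells, 3 of the 10 were higher with Sca-1, namely Il33, Tnf and Tnfaip3, where 5.94% of all genes tested were higher. The median log2 difference of the 10 was 0.58, against -0.07 over all genes. In the 29-week pair the log2 ratios were 3.70 for Il33, 2.11 for Tnf and 2.58 for Tnfaip3, and in the 32-week libraries, 2 against 2, they were 2.90, 2.07 and 1.63. Il18 went in opposite directions at the 2 ages, at -1.70 and 2.00, and so did Osm, at 2.58 and -0.27. Without the 3 libraries with liver transcripts 5 of the 10 passed, the added ones being Il1b and Il18. The 32-week libraries alone again gave no call, and without the low-count filter Tnfaip3 did not pass (adjusted p = 0.0527). Whether the Sca-1 difference itself differs between tdT+ and tdT- cells is the same test as the tdT comparison below.

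**Figure D3:**
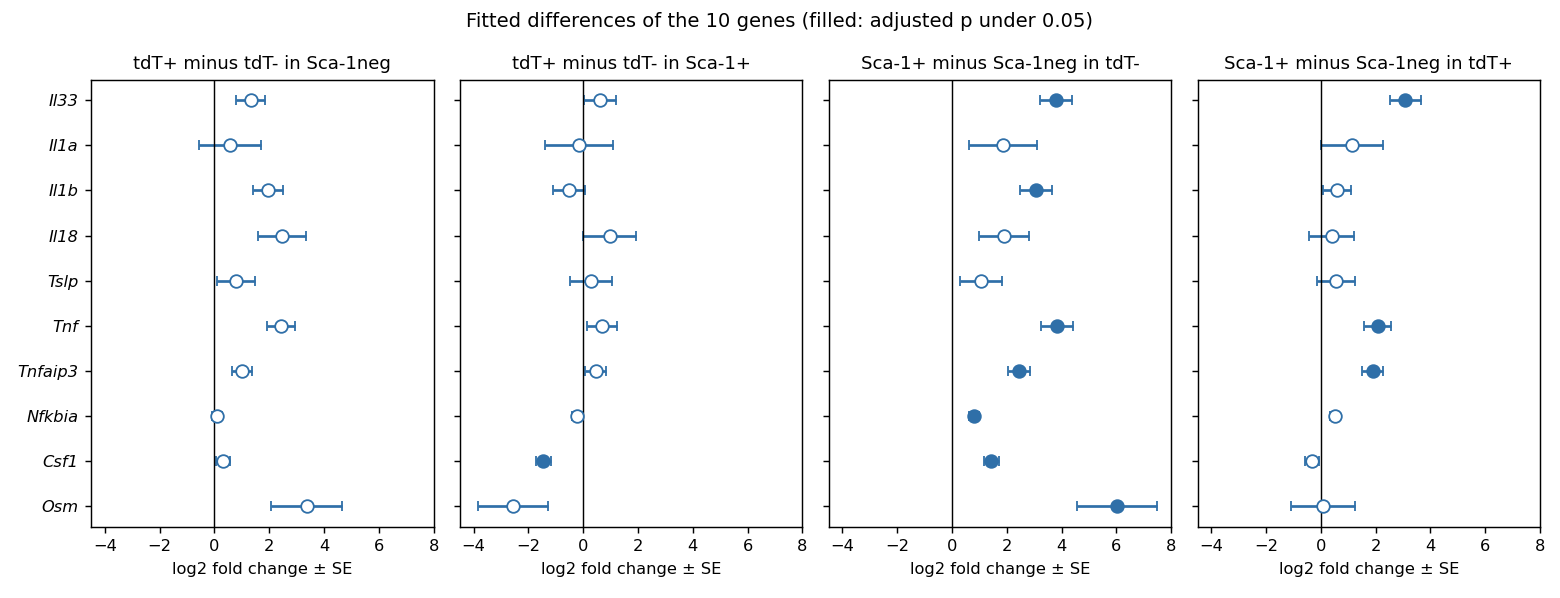
Fitted log2 differences (points) with their standard errors (bars) for the 10 genes in the 4 pairwise comparisons. Filled points have an adjusted p under 0.05, which holds for 7 genes by Sca-1 in tdT- cells, for 3 by Sca-1 in tdT+ cells, for Csf1 by tdT in Sca-1+ cells and for none by tdT in Sca-1neg cells.

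For tdT within Sca-1neg cells, none of the 10 genes passed the edgeR test, where 0.0640% of all genes did (13 genes; 1691 of the 20307 had an unadjusted p under 0.05). All 10 differences were positive, with a median log2 of 1.16 against -0.03 over all genes. Tnf came nearest, at 2.44 ± 0.52 (edgeR unadjusted p = 0.000645, adjusted p = 0.155). All 3 libraries labelled tdT+ lay above all 3 tdT- libraries, the highest, at 4.23 CPM, being the one labelled replicate 2. The log2 ratio of Tnf was 1.30 in the 29-week pair and 3.06 in the 32-week libraries. Il1b was at 1.95 ± 0.54 (adjusted p = 0.315). Osm was at 3.37 ± 1.29 (adjusted p = 0.533) and Il33 at 1.32 ± 0.52 (adjusted p = 0.570). DESeq2's Wald test called Tnf and Il1b there. At an unadjusted p under 0.05, edgeR counted 6 of the 10: Tnf, Il1b, Il18, Tnfaip3, Osm and Il33. Without the Sca-1neg library labelled tdT+ replicate 2, whose reporter level was that of tdT- libraries, Il1a, Tslp and Nfkbia turned to -1.53, -0.14 and -0.03. Without the 3 libraries with liver transcripts, Il1a, Il18, Tslp and Csf1 turned to -0.22, -0.79, -0.19 and -0.28, so that the positive sign of all 10 rests on those libraries.

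For tdT within Sca-1+ cells, Csf1 alone of the 10 passed and was lower with tdT, where 2.34% of all genes tested were lower. The other 9 ranged from -2.56 ± 1.28 for Osm (edgeR adjusted p = 0.408) to 0.96 ± 0.95 for Il18 (adjusted p = 0.743). Il33 was at 0.62 ± 0.58 (adjusted p = 0.725), Tnf at 0.68 ± 0.55 (adjusted p = 0.663) and Tnfaip3 at 0.45 ± 0.40 (adjusted p = 0.705). The median of the 10 was 0.05, against 0.04 over all genes.

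The tdT difference in Sca-1+ cells minus that in Sca-1neg cells was negative for all 10 genes and passed for none, where 0.483% of all genes passed (98 genes, and 2476 at an unadjusted p under 0.05). Csf1 came nearest, at -1.77 ± 0.37 (edgeR adjusted p = 0.0654, and 0.000339 to 0.706 over the alternatives). Il1b was at -2.47 ± 0.77 (adjusted p = 0.220) and Osm at -5.93 ± 1.81 (adjusted p = 0.214). DESeq2 called Csf1, Il1b and Osm. Without the 3 libraries with liver transcripts the values of Il33, Il18 and Tslp turned positive, at 0.30, 1.67 and 0.40. With the size factors of DESeq2 in edgeR, which moved the median of all genes in this comparison by 0.12 (log2), Csf1 alone passed.

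The surrounding pathway was read from 73 further genes in 7 lists, of which 72 had enough reads to be tested. By Sca-1, 20 of the 72 were higher and none lower in tdT- cells, and 17 were higher and 1 lower in tdT+ cells. Of all genes tested, 3.68% and 5.94% were higher in these comparisons. The median log2 differences of the 72 were 0.91 and 0.46, against -0.13 and -0.07 over all genes. By tdT, 3 were lower in Sca-1+ cells, where 2.34% of all genes were lower, and none passed in Sca-1neg cells. Without the 3 libraries with liver transcripts, the Sca-1 calls in tdT+ cells described below were lost for Il34, Il36g, Lifr, Pycard, Ripk1, Myd88, Rel, Relb and Nfkbie. The lists were chosen with results of these data known, so their counts are a description.

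Ligands and their antagonists were among the larger differences. In tdT- cells 4 of the 11 tested were higher with Sca-1, and 4 of 11 in tdT+ cells. Il1rn, the IL-1 receptor antagonist, was at 70.2 ± 10.2 CPM (SD, n = 2) in Sca-1+ tdT- and 126 ± 4.25 (n = 3) in Sca-1+ tdT+ cells, against 8.45 ± 4.02 (n = 3) in Sca-1neg tdT- and 28.1 ± 13.0 (n = 3) in Sca-1neg tdT+ cells. Its log2 differences by Sca-1 were 3.05 ± 0.46 (edgeR adjusted p = 0.00748) and 2.17 ± 0.42 (adjusted p = 0.00936). Il36g, an epidermal cytokine of the IL-1 family, differed by 3.73 ± 0.71 (adjusted p = 0.0145) and 2.43 ± 0.65 (adjusted p = 0.0323). Its call in tdT+ cells was lost in 7 of 18 alternatives. The IL-36 receptor antagonist Il36rn differed by 2.70 ± 0.56 in tdT- cells (adjusted p = 0.0195) and 1.75 ± 0.51 in tdT+ cells (adjusted p = 0.0462). Il34 is the other ligand of the CSF-1 receptor and the one that Langerhans cells depend on. It was higher with Sca-1 by 1.49 ± 0.34 in tdT- cells (adjusted p = 0.0308) and 1.51 ± 0.32 in tdT+ cells (adjusted p = 0.0111). Csf1 passed by Sca-1 in tdT- cells only. The Il36rn call in tdT+ cells and the Il34 call in tdT- cells were not followed over the alternatives.

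Of 14 receptors, 4 were higher with Sca-1 in tdT- cells, and 1 was higher and 1 lower in tdT+ cells. Il1r2, the decoy receptor that binds IL-1 without signalling, was higher in both, by 2.30 ± 0.37 (edgeR adjusted p = 0.00816) and 2.57 ± 0.35 (adjusted p = 0.00128). Il6st, the gp130 chain shared by oncostatin M and IL-6 receptors, was at 1349 ± 87.1 CPM (SD, n = 2) in Sca-1+ tdT- and 155 ± 57.0 (n = 3) in Sca-1neg tdT- cells, a difference of 3.12 ± 0.54 (adjusted p = 0.0130). That call was lost in 5 of 18 alternatives, among them leaving out either Sca-1+ tdT- library. Among Sca-1+ cells Il6st was lower with tdT by -2.49 ± 0.53 (adjusted p = 0.0419), and Osmr, the oncostatin M receptor chain, by -0.80 ± 0.16 (adjusted p = 0.0224). The Il6st call by tdT was lost in 11 and the Osmr call in 6 of 18 alternatives, both of them without either Sca-1+ tdT- library. The leukaemia inhibitory factor receptor Lifr was higher with Sca-1 in tdT- cells (0.87 ± 0.17, adjusted p = 0.0149, a call lost in 5 of 18 alternatives). In tdT+ cells Lifr was lower with Sca-1 (-0.53 ± 0.15, adjusted p = 0.0454, a call lost in 13 of 18 alternatives). Il6st and Osmr thus had their high values in the libraries with the endothelial RNA described above, and its part in them was not tested.

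Of 8 genes for inflammasomes and cytokine processing, 2 were higher with Sca-1 in tdT- cells and 4 in tdT+ cells. Casp4, encoding the caspase of the non-canonical inflammasome, was higher in both, by 3.43 ± 0.32 (edgeR adjusted p = 0.00116) and 1.58 ± 0.28 (adjusted p = 0.00485). Gsdma, a gasdermin of the epidermis, was higher in tdT- cells by 3.06 ± 0.52 (adjusted p = 0.00934). In tdT+ cells Pycard, the inflammasome adaptor, was higher by 0.82 ± 0.15 (adjusted p = 0.00637), and Casp1, which matures IL-1 beta and IL-18, by 1.06 ± 0.21 (adjusted p = 0.00795).

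Signalling proteins and NF-kB subunits differed less. Of 13 signal transducers, 1 was higher in tdT- cells, the adaptor Myd88 (0.67 ± 0.17, edgeR adjusted p = 0.0427, lost in 11 of 18 alternatives). In tdT+ cells 3 were higher, Ripk1 (0.66 ± 0.14), Traf2 (0.78 ± 0.17) and Myd88 (0.69 ± 0.15). None of the 5 subunits passed in tdT- cells, where Nfkb1 was at 0.15 ± 0.14 and Rela at 0.53 ± 0.21, and 2 were higher in tdT+ cells, Relb (0.56 ± 0.16, adjusted p = 0.0378) and Rel (1.17 ± 0.32, adjusted p = 0.0404). The Relb call was lost in 11 and the Rel call in 13 of 18 alternatives.

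Of 11 further genes listed as inhibitors, 5 were higher with Sca-1 in tdT- cells and 3 in tdT+ cells. The list took in the nuclear IkB genes Bcl3 and Nfkbiz, so not all of its genes are inhibitors only. Zc3h12a, encoding the RNase Regnase-1 that degrades cytokine messages, was higher by 1.63 ± 0.26 (edgeR adjusted p = 0.00695) and 1.37 ± 0.24 (adjusted p = 0.00398). The nuclear IkB protein gene Nfkbiz was at 496 ± 52.6 CPM (SD, n = 2) in Sca-1+ tdT- and 465 ± 54.6 (n = 3) in Sca-1+ tdT+ cells, against 232 ± 30.6 (n = 3) and 226 ± 46.0 (n = 3) in the matching Sca-1neg cells. The inhibitor Nfkbie was higher by 1.55 ± 0.30 (adjusted p = 0.0155) and 0.98 ± 0.28 (adjusted p = 0.0409), the second call being lost in 13 of 18 alternatives.

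Of 10 NF-kB target genes, 4 were higher with Sca-1 in tdT- cells and none in tdT+ cells, and their median log2 differences were 2.45 and -0.18. Icam1, the adhesion molecule of endothelium and inflamed keratinocytes, was at 551 and 503.6 CPM in Sca-1+ tdT- replicates 1 and 2, against 76.3 to 83.2 CPM in Sca-1neg tdT- and 75.6 to 122 CPM in Sca-1+ cells with tdT. It was higher by Sca-1 in tdT- cells (2.72 ± 0.38, edgeR adjusted p = 0.00516) and lower by tdT among Sca-1+ cells (-2.32 ± 0.38, adjusted p = 0.00975), which are the 2 comparisons in which Csf1 passed. Traf1 (2.33 ± 0.49, adjusted p = 0.0211) and Birc3 (0.96 ± 0.21, adjusted p = 0.0235), which encode proteins of TNF receptor complexes, were higher in tdT- cells. Each of these 2 calls was lost in 6 of 18 alternatives, among them leaving out either Sca-1+ tdT- library. In tdT+ cells Icam1 was at -0.28 ± 0.34 and Ptgs2, encoding cyclooxygenase 2, at -0.19 ± 0.41.

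**Figure D4:**
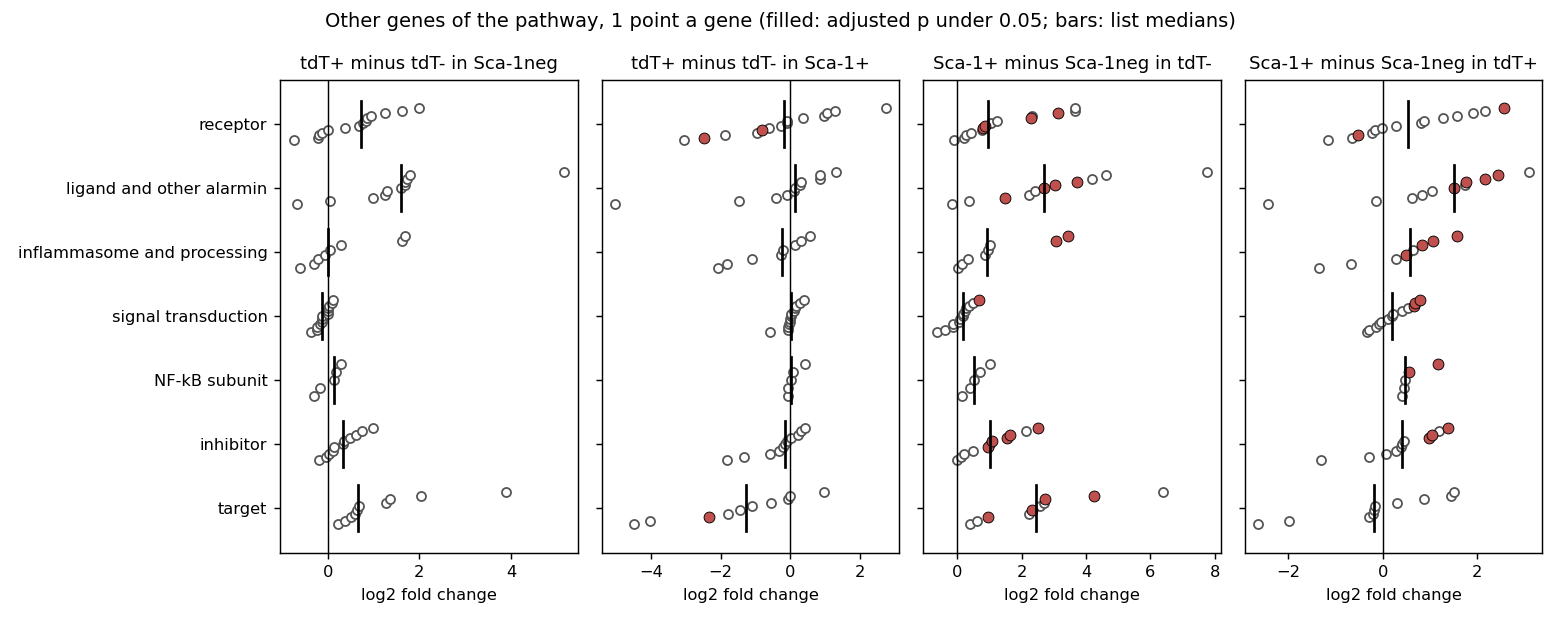
Fitted log2 differences of the 72 other pathway genes in the 4 pairwise comparisons, 1 point a gene, grouped by role. Filled points have an adjusted p under 0.05 and black bars are list medians; in tdT- cells the Sca-1 median is 2.70 for ligands and 2.45 for targets, and in tdT+ cells 1.51 and -0.18.

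Across the 11 libraries the levels of several of the 10 genes moved together. On log2 CPM, Pearson's r was 0.96 for Tnfaip3 with Il33 and with Tnf, 0.94 for Il33 with Tnf and 0.88 for Tnfaip3 with Nfkbia. It was 0.86 for Il1b with both Tnf and Osm. Csf1 was the least like the others, with r from 0.26 (Il18) to 0.57 (Osm). These are descriptions over 11 libraries that fall into 4 sorted groups and share the group differences above. The genes most like each of the 5 members with a mean of at least 5 CPM were Tfrc, Tcim and Arhgdib for Il33 (r = 0.98 each), Myo1f (0.98), Ifi203 and H2-Aa (0.97) for Il1b, and Sphk1, Nbeal2 and Klf5 for Tnfaip3 (0.99 each). They were Tgfbr2, Pde4b (0.97) and Pxk (0.96) for Nfkbia, and Cds2 (0.96), Lrrk2 and Exoc6 (0.94) for Csf1.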

How the data were processed

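Epidermal cells were sorted in 11 libraries (TruSeq RNA v2, per the labels' protocols). The deposited values are raw counts of reads per Ensembl gene; the submitters' processing notes name bcl2fastq 2.20.0.422, FastQC, STAR, featureCounts, DESeq2 1.18.1 and mm10, and no strand setting is named. Symbols and coordinates came from GENCODE M21 (mm10). From the counts, edgeR 4.0.16 (R 4.3.3, limma 3.58.1) fitted 4 group means over all 11 libraries (TMM, genes kept by filterByExpr with a minimum count of 10, robust quasi-likelihood test, 7 residual degrees of freedom) for 5 comparisons, with Benjamini-Hochberg adjustment over 20307 genes and a threshold of 0.05. SEs are the log2 difference divided by the root of F. Replicates are pools of 2 mice; whether pools share mice between groups is not stated. Alternatives were DESeq2 1.42.0, its size factors, no filter, a replicate block, only the groups compared, 32-week libraries only, no libraries with liver transcripts, and each library left out. The 10 genes, the pathway and marker lists and the tests were chosen with earlier results of these data known. All 10 genes are named, and up to 3 genes per list and comparison: those past the threshold by lowest p, otherwise the 2 with the highest mean CPM. Il34 in tdT- cells and Il36rn in tdT+ cells are given besides. Likeness is Pearson's r on log2 CPM (prior count 2), with the 3 highest genes named.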

Additional observations from a re-analysis of the deposited data

Results flagged for a closer look

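The tdT difference itself differed between Sca-1+ and Sca-1neg cells for 2 genes of the surrounding pathway, by the interaction term of the edgeR fit. Lifr, the leukaemia inhibitory factor receptor, was at 192.7 ± 24.2 CPM (SD, n = 3) with tdT and 112 ± 17.98 (n = 3) without in Sca-1neg cells, and at 134 ± 11.6 (n = 3) with tdT and 205 ± 0.655 (n = 2) without in Sca-1+ cells. Its difference of differences was -1.39 ± 0.23 on the log2 scale (adjusted p = 0.0244, and 1.13e-06 to 0.719 over the alternatives). Icam1 was at 128 ± 75.3 CPM (n = 3) and 80.0 ± 3.46 (n = 3) in Sca-1neg cells with and without tdT, and at 105 ± 25.8 (n = 3) and 527 ± 33.4 (n = 2) in Sca-1+ cells. Its difference of differences was -3.00 ± 0.51 (adjusted p = 0.0344, and 1.51e-07 to 0.599 over the alternatives). The Icam1 call was lost in 11 and the Lifr call in 7 of 17 alternatives, and both kept their sign in all 17. In both genes the 2 Sca-1+ tdT- libraries, which hold 4202 and 4472 CPM of endothelial markers, were the highest or near the highest, and the part of that RNA was not tested.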

How the results depend on the processing

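The 10 genes and the pathway calls named by the rule above were followed over the alternatives. Of their values, 1284 kept their direction and side of the threshold, 213 fell below it, 11 rose past it and 28 changed sign. The cause was not tested, beyond the fewer libraries of some alternatives. In the order tdT in Sca-1neg, tdT in Sca-1+, Sca-1 in tdT-, Sca-1 in tdT+ and difference of the tdT effects, edgeR called 13, 556, 1166, 2572 and 98 genes and 0, 1, 7, 3 and 0 of the 10. DESeq2 called 400, 1470, 2950, 4652 and 841 genes, and 2, 1, 7, 4 and 3 of the 10, Nfkbia being added for Sca-1 in tdT+ cells. Its size factors in edgeR gave 156 genes and 1 of the 10 in the last comparison, and in the first 11 genes higher and 0 lower against 11 and 2. With no low-count filter 81 genes were called in the first and 234 in the last comparison, with 1 of the 10 in the last. Fitting only the groups compared gave 0, 957, 2003 and 1584 genes. The 32-week libraries alone gave 0, 64, 9, 345 and 0 genes and 0 of the 10 in every comparison. Without the 3 libraries with liver transcripts 38 genes were called in the first comparison, 1286 in the second, 2073 in the third and 220 in the last, and 5 of the 10 for Sca-1 in tdT+ cells.

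Leaving out 1 library at a time gave 0 to 14, 145 to 791, 116 to 1665, 1591 to 3040 and 26 to 347 genes, and 0, 0 to 1, 2 to 7, 2 to 3 and 0 to 1 of the 10. The lowest counts came without Sca-1neg tdT- replicate 3, Sca-1+ tdT- replicate 2, Sca-1+ tdT- replicate 1, Sca-1neg tdT+ replicate 1 and Sca-1+ tdT- replicate 2. A lone remaining Sca-1+ tdT- library is taken to vary as the other groups do.

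Every sign change was in a value that did not pass the test. Without the libraries with liver transcripts, the tdT differences in Sca-1neg cells became -0.22 (Il1a), -0.79 (Il18), -0.19 (Tslp) and -0.28 (Csf1), the Sca-1 difference of Csf1 in tdT+ cells 0.24, and the differences of the tdT effects 0.30 (Il33), 1.67 (Il18) and 0.40 (Tslp). In the 32-week libraries Osm by Sca-1 in tdT+ cells was -0.28 and the difference of the tdT effects of Il18 0.08. With 1 library left out at a time, the range crossed 0 for Il1a (-1.53 to 1.84), Tslp (-0.14 to 1.20) and Nfkbia (-0.03 to 0.25) by tdT in Sca-1neg cells, where the low end came without the library labelled tdT+ replicate 2. By tdT in Sca-1+ cells it did for Il1a (-0.95 to 1.53), Il1b (-0.98 to 0.08) and Tslp (-0.25 to 0.55), and by Sca-1 in tdT+ cells for Il18 (-0.37 to 1.68) and Osm (-0.43 to 2.51). In the difference of the tdT effects it did for Il33 (-1.16 to 0.19), Il1a (-2.02 to 1.35) and Tslp (-1.04 to 0.42).

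Same-numbered libraries did not all deviate together (over 15 pairs r ran from -0.415 to 0.589, with 7 over 0.1). This cannot exclude pairing, because liver transcripts also enter these deviations. The r of -0.415 joined Sca-1neg tdT+ replicate 1, which held them, to Sca-1neg tdT- replicate 1, which did not. With the differently numbered Sca-1neg tdT- replicate 2, which held them too, its r was 0.513. The main fit used no pairing, although replicate 1 is the younger age in every group. With the replicate block 15, 502, 1027, 2571 and 123 genes were called and the same 7, 3 and 1 of the 10, and Il1a turned to 0.91 by tdT in Sca-1+ cells and to 0.63 in the difference of the tdT effects. Among pathway genes the block ended the calls of Il6st and Osmr by tdT in Sca-1+ cells, Birc3 and Myd88 by Sca-1 in tdT- cells, Lifr, Rel and Nfkbie by Sca-1 in tdT+ cells, and Icam1 in the difference of the tdT effects. Depth limits the low genes Osm, Tnf and Il1a, and the number of Sca-1+ tdT- libraries (2) limits each comparison that uses them.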
